A study of Mus musculus with 6 samples.

Results

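The proteasome is the protease complex that degrades ubiquitin-tagged proteins, and 47 of its genes were described here in mouse macrophages that had been derived from bone marrow in culture with M-CSF, the macrophage growth factor. The members are all genes of the count table with a symbol from Psma to Psmg followed by a number and at least 60 counts summed over the 6 libraries, 47 of 55335 genes in the table. Of 48 symbols that match, only Psmb11, a subunit of thymic epithelium, missed this minimum, with 0 counts in every library. The minimum is on the sum over both groups and does not use their difference. In 3 libraries, macrophages received 400 µM kinsenoside, a plant glycoside (labelled KD), together with medium conditioned by injured acinar cells of the pancreas (PAC-CM). In the 3 other libraries, the cells received PAC-CM without kinsenoside. PAC-CM was added on day 5 in both groups, and all cells were grown in 20 ng/mL M-CSF. No macrophages without PAC-CM are among the samples, so the values bear on kinsenoside and not on the response to PAC-CM. The labels give no strain, age or animal, nor whether replicates were separate cultures, and p-values therefore measure the spread between these libraries, which may be technical.

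The core particle of the proteasome is a barrel of alpha rings (Psma genes), which gate the entrance, and beta rings (Psmb genes), which carry the active sites. Interferon-gamma induces an alternative catalytic set, in which Psmb9 takes the place of Psmb6, Psmb10 that of Psmb7 and Psmb8 that of Psmb5. The resulting immunoproteasome favours peptides that suit MHC class I, and macrophages and other immune cells carry it even at rest. Regulatory particles sit on the barrel ends: ATPases (Psmc) unfold substrates, other subunits (Psmd) bind ubiquitin and remove it, and the Psme activators open the gate without ATP. The transcription factor NRF1 (gene Nfe2l1) raises constitutive proteasome genes when proteasome activity falls short.

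Total counts ranged from 41125059 to 43434292 in the kinsenoside libraries and from 43054066 to 47461702 in the PAC-CM libraries. Defining macrophage markers summed to 20072 to 22482 CPM (counts scaled to the library total) with kinsenoside and 18365 to 20178 CPM in PAC-CM, with all 8 listed identifiers above 0. The 15 acinar cell markers summed to only 7.22 to 9.88 and 8.55 to 9.84 CPM, and 1 of them was at 0 in each library. Markers of dendritic cells, neutrophils, T and NK cells, B cells and fibroblasts summed to at most 42.9 CPM with kinsenoside and 40.0 CPM in PAC-CM for any of these lists. Their part in the results was not tested. Kinsenoside replicate 1 stood apart on the second principal component of log2 CPM, at -39.3 where the other libraries lay between -6.13 and 19.7, so that values without it are given below.

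Promoters of 4 catalytic genes, a constitutive and an inducible pair, are shown to set the elements found in them side by side. The sequences are RefSeq's, build GRCm38.p6, from 250 bases before the start annotated there to 50 after it, in the direction of transcription. The windows of Psmb8 and Psmb9 lie wholly within the gene bounds given below, which are those of GENCODE. For these genes, a match or its absence thus concerns a start inside those bounds and not the outermost one. Psmb5 (chr14:54617946-54618245, minus strand) and Psmb6 (chr11:70525107-70525406, plus strand) hold the letters TGACNNNGC, a core of the element that NRF1 binds, in capitals, first base at position -47 and -9 from the start. Psmb8 (chr17:34197945-34198244, plus strand) holds TTCNNNGAA, the palindrome of the gamma-activated site, in capitals at position -97. Psmb9 (chr17:34187281-34187580, minus strand) holds neither, nor a pair of GAAA with NN between them, the letters searched for the interferon-stimulated response element. Its capitals mark the 275 bases it shares with the promoter window of Tap1, the peptide transporter gene transcribed the other way.
Psmb5: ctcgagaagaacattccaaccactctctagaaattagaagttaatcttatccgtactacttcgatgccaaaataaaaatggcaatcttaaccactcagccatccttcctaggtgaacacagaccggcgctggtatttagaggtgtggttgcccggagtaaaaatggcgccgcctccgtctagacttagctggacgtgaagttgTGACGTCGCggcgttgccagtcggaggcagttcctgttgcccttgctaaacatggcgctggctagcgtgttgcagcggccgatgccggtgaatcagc
Psmb6: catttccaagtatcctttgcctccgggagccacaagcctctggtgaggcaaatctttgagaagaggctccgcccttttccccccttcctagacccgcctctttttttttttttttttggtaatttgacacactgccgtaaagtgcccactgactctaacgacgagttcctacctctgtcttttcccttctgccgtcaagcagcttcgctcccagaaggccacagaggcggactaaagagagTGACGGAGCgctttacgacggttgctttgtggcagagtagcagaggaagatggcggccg
Psmb8: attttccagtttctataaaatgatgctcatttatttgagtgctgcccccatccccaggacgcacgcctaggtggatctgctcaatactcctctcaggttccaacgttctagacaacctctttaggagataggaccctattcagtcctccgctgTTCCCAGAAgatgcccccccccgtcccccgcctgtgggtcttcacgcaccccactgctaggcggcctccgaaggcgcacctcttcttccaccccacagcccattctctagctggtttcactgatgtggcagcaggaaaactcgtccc
Psmb9: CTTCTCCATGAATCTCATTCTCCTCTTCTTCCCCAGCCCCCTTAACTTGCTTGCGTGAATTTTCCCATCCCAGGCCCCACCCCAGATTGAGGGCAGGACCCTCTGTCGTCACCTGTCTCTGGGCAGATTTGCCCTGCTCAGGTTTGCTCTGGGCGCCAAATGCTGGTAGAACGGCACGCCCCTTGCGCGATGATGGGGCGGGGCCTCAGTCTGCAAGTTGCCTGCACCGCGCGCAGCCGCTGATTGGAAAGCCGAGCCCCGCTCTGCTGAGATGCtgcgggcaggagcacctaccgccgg

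Searched on both strands, TGACNNNGC was found in 6 of 39 members with a promoter window, or 15.4%, against 14.0% of all genes with such a window. TTCNNNGAA was found in 3 members (7.69%) against 9.55%, and the response element in 5 members (12.8%) against 3.99%. The last 5 were Psmb3, Psmd4, Psmd9, Psme1 and Psmg4, so that none of Psmb8, Psmb9 and Psmb10 was among them. A match describes letters in this window and is not evidence of binding, and a window without a match says nothing of elements farther away. No test of these shares was made.

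No proteasome gene passed the test for a difference between macrophages given kinsenoside and those given PAC-CM alone. Estimates were small on either side of 0, from -0.30 for Psmg1 to 0.24 for Psmc1 on the log2 scale, with a median of 0.051 over the 47 members. Estimate here means the log2 fold change of kinsenoside over PAC-CM alone. Among abundant members the constitutive genes Psmc1 and Psmb6 and the activator gene Psme2 had the highest estimates, between 1.13-fold and 1.18-fold. All 3 immunoproteasome subunits had estimates below 0, down to 0.924-fold for Psmb10. In bulk RNA such as this, fewer cells that express a gene and less RNA per cell cannot be told apart.

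The quasi-likelihood test of edgeR, with p-values adjusted by Benjamini-Hochberg over 13901 genes, all members among them, called 0 of 47 members at an adjusted p under 0.05, and so did DESeq2, limma-voom and edgeR without kinsenoside replicate 1. Over the whole table the same test called 71 genes, or 0.511%. At an unadjusted p under 0.05, 4 members were higher (Psmc1, Psmb6, Psme2 and Psmd6), or 8.51%, against 6.74% of all tested genes. DESeq2 had 3 and limma-voom 4 higher members at that level, and edgeR without kinsenoside replicate 1 had 4. The share over all genes was not taken for those other fits. In edgeR with all libraries no member was lower at that level, against 8.19% of all tested genes. The count of higher members is thus near the background, and among genes averaging 20 CPM or more it was 9.52% of members against 10.8% of all such genes. The median estimate of those genes was 0.064 over members and 0.020 over all. The lowest adjusted p among members was 0.131 for Psmc1, and over 15 other fits it was never under 0.0532 (Psmc1, DESeq2).

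The members had smaller standard errors than most genes. The median standard error of their log2 fold changes was 0.0650, against 0.127 over all tested genes and 0.0812 over the 5782 tested genes that averaged 20 CPM or more. The 95% interval lay wholly between 0.8-fold and the inverse of that fold for 37 of 47 members, or 78.7%. The same held for 29.8% of all tested genes, and, among genes averaging 20 CPM or more, for 37 of 42 members (88.1%) and 57.6% of genes. Within 1.5-fold lay 44 members, and the exceptions were Psma8, Psmg1 and Psmg3, which are among the least abundant. These shares describe precision and were not tested.

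**Figure D1:**
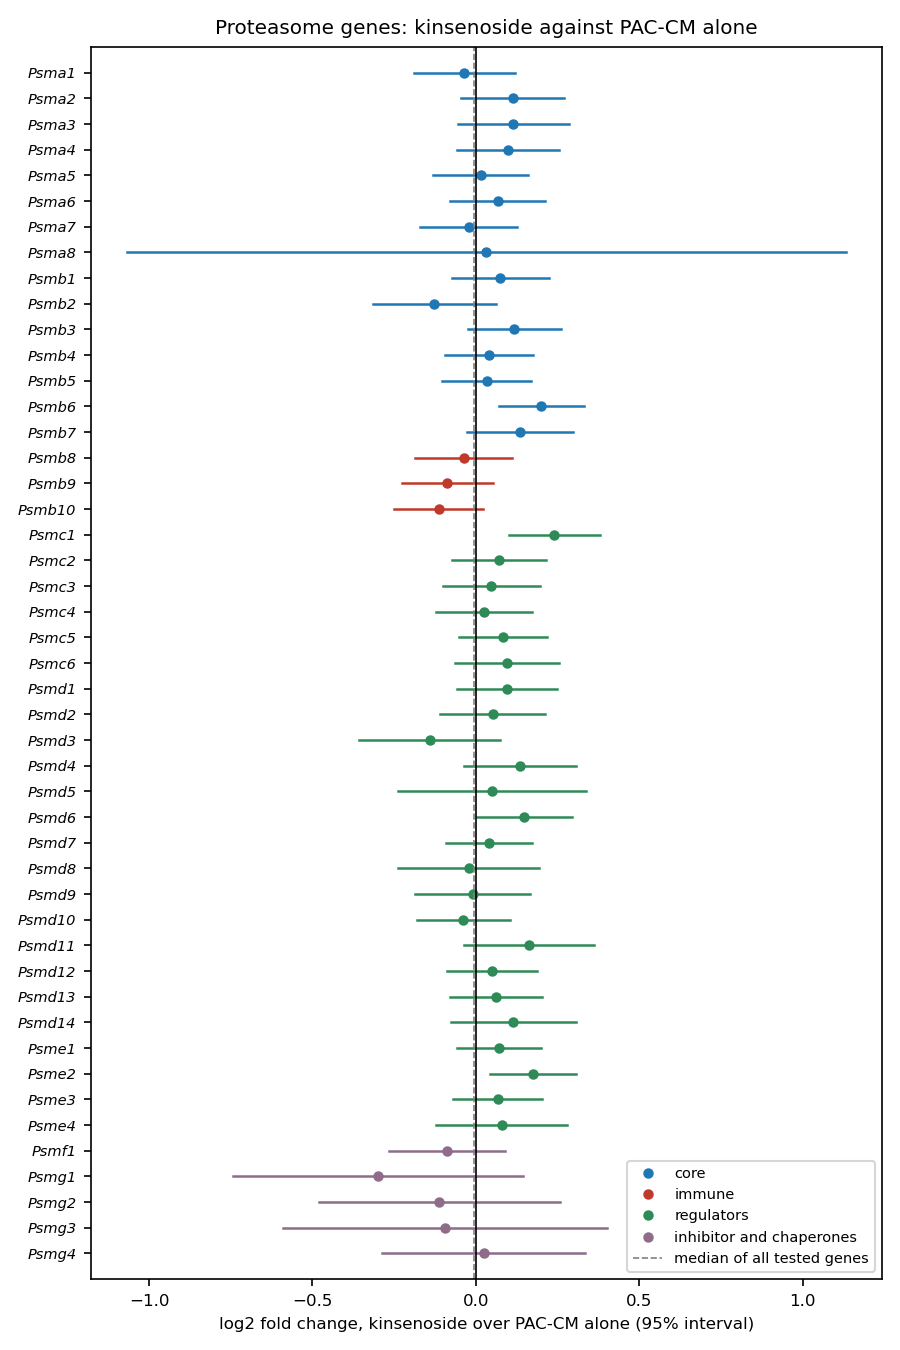
Log2 fold change of each of the 47 members, kinsenoside over PAC-CM alone (points), with the 95% interval of the edgeR fit (lines), coloured by subgroup. Intervals of Psmc1, Psmb6, Psme2 and Psmd6 lie above 0, no interval lies below 0, and the median of all tested genes is drawn dashed at -0.00562.

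Levels are given here as CPM scaled by the trimmed mean of M-values (TMM) factors of edgeR, the scale of the fold changes, as mean ± SD over 3 libraries a group. Per kilobase of annotated exon, the most abundant member was Psme2, at 202 ± 5.10 with kinsenoside and 179 ± 5.53 in PAC-CM alone, followed by Psmb5 at 173 ± 5.58 with kinsenoside and 169 ± 5.05 in PAC-CM alone. Psmb10 stood next, at 130.5 ± 1.44 with kinsenoside and 141 ± 6.17 in PAC-CM alone, and Psma6 at 129.8 ± 3.56 with kinsenoside and 124 ± 6.29 in PAC-CM alone. Psma6 and Psmb10 with kinsenoside do not differ beyond their spread. Without Psma8, the core subunits spanned 23.8 (Psmb1) to 173 CPM per kilobase with kinsenoside and 22.6 to 169 with PAC-CM alone. Psmb9, at 24.6 ± 0.492 with kinsenoside and 26.2 ± 0.957 in PAC-CM alone, was the least abundant of the 3 inducible catalytic subunits. The order depends on the length used: over the principal transcript in place of all exons, Psmb6 was at 288 CPM per kilobase with kinsenoside and 251 with PAC-CM alone, second after Psme2. At the low end were assembly chaperone genes. Psmg1 was at 2.29 ± 0.286 with kinsenoside and 2.81 ± 0.584 in PAC-CM alone. Psmg3 was at 2.31 ± 0.741 and 2.47 ± 0.106, and Psmg2 at 2.57 ± 0.436 and 2.77 ± 0.265, in the same order of groups. The order of these genes differed between the groups. Lowest was Psma8 (0.371 ± 0.166 with kinsenoside and 0.364 ± 0.187 in PAC-CM alone).

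**Figure D2:**
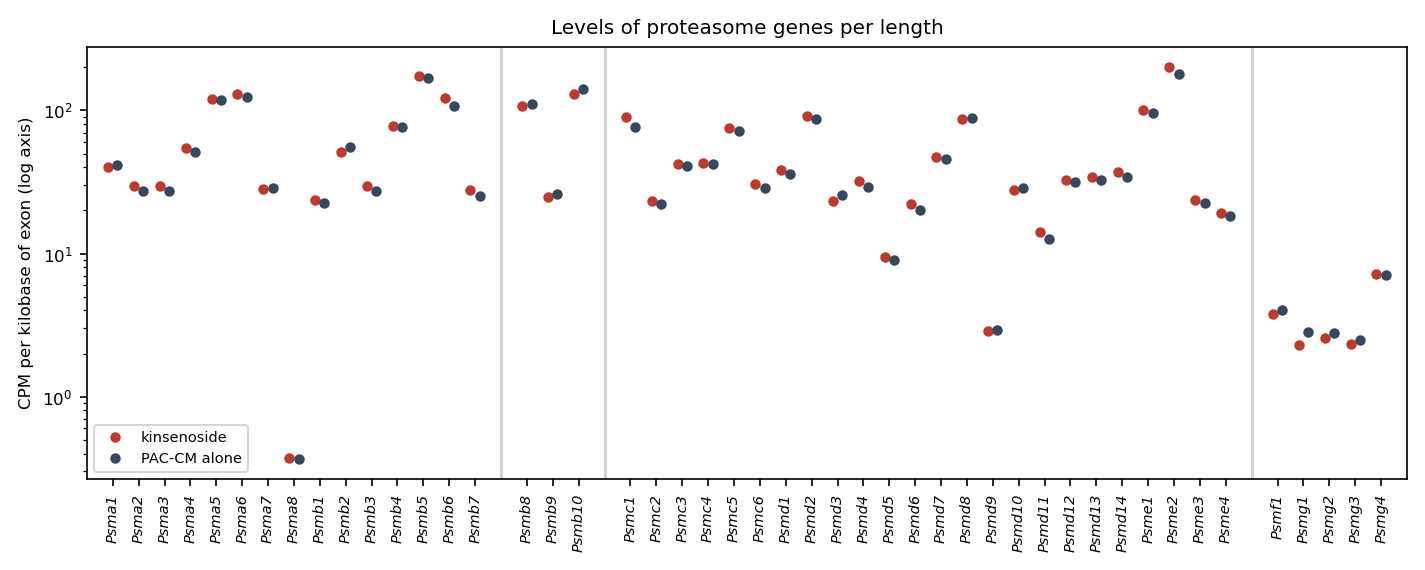
Mean level of each member per kilobase of annotated exon (CPM per kilobase, log axis) in the kinsenoside and the PAC-CM group, by subgroup from left to right: core, immune, regulators, and inhibitor with assembly chaperones. The 2 points of a gene lie close together beside the differences between genes, which span from 0.364 (Psma8) to 202 (Psme2).

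Of the immunoproteasome subunits, Psmb8 and Psmb10 were abundant in both groups. Psmb9 lay near the low end of the core range per kilobase of exon. It was at 24.6 with kinsenoside and 26.2 in PAC-CM alone, beside 23.8 and 22.6 for Psmb1. Psmb8 (ENSMUSG00000024338, chromosome 17, 34197721 to 34201454, GRCm38), which has chymotrypsin-like activity, was at 341, 376 and 378 CPM in the kinsenoside libraries, against 387, 364 and 373 CPM in the PAC-CM libraries. The groups overlapped, and kinsenoside replicate 1 was the lowest library. Its estimate was -0.037 (SE 0.0650, adjusted p = 0.846), with a 95% interval of -0.19 to 0.11. Psmb9 (ENSMUSG00000096727, chromosome 17, 34181987 to 34187764) was at 91.4, 91.1 and 88.1 CPM in the kinsenoside libraries, against 91.8, 97.0 and 98.5 CPM in the PAC-CM libraries. All kinsenoside libraries lay below all PAC-CM libraries, the nearest by 91.8 against 91.4 CPM in PAC-CM replicate 1 and kinsenoside replicate 1. The estimate was -0.087 (SE 0.0609, adjusted p = 0.559), with an interval of -0.23 to 0.052. Psmb10 (ENSMUSG00000031897, chromosome 8, 105935735 to 105938444), of trypsin-like activity, was at 222, 225 and 220.1 CPM in the kinsenoside libraries, against 245, 248 and 229 CPM in the PAC-CM libraries. Here too the groups did not overlap, with an estimate of -0.11 (SE 0.0595, adjusted p = 0.418) and an interval of -0.25 to 0.023. None of the 3 passed, and the median of -0.087 compares with -0.0056 over all tested genes. With scaling by total counts the 3 estimates also stayed below 0, with a median of -0.13. Without kinsenoside replicate 1, however, the estimate of Psmb8 was 0.0091, on the other side of 0, while those of Psmb9 and Psmb10 were -0.10 and -0.11.

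Their constitutive counterparts had estimates above 0. Psmb5, the chymotrypsin-like subunit, was at 156, 150.2 and 160.2 CPM in the kinsenoside libraries, against 157, 152 and 148 CPM in the PAC-CM libraries. The groups overlapped, and the estimate was 0.033 (SE 0.0600, adjusted p = 0.851); scaled by total counts it was -0.011, on the other side of 0. Psmb6 (ENSMUSG00000018286, chromosome 11, 70525367 to 70527858), the caspase-like subunit, was at 231, 227 and 231 CPM in the kinsenoside libraries, against 207, 198 and 195 CPM in the PAC-CM libraries. Every kinsenoside library lay above every PAC-CM library, and the estimate was 0.20 (SE 0.0567, adjusted p = 0.164), with an interval of 0.071 to 0.33. Psmb7, the trypsin-like subunit, was at 90.1, 94.9 and 100.3 CPM in the kinsenoside libraries, against 90.3, 87.9 and 81.6 CPM in the PAC-CM libraries. PAC-CM replicate 1 reached the lowest kinsenoside library, so the groups overlapped, with an estimate of 0.13 (SE 0.0707, adjusted p = 0.417).

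The ratio of an inducible subunit to the constitutive one it replaces, taken within each library, does not depend on scaling between libraries. Per exon length, Psmb9 to Psmb6 was 0.202, 0.205 and 0.195 in the kinsenoside libraries, against 0.227, 0.251 and 0.258 in the PAC-CM libraries. The groups did not overlap, and the mean was 0.201 ± 0.00509 with kinsenoside and 0.245 ± 0.0162 with PAC-CM alone, a quotient of 0.819. Psmb10 to Psmb7 was 4.95, 4.76 and 4.40 in the kinsenoside libraries, against 5.44, 5.67 and 5.62 in the PAC-CM libraries. Again no library of one group reached the other, and the quotient of the means was 0.843. Psmb8 to Psmb5 was 0.580, 0.665 and 0.627 in the kinsenoside libraries, against 0.656, 0.638 and 0.671 in the PAC-CM libraries. These groups overlapped, with a quotient of 0.953. Without kinsenoside replicate 1, the quotients were 0.816 for Psmb9 to Psmb6, 0.821 for Psmb10 to Psmb7 and 0.987 for Psmb8 to Psmb5. The ratios were not tested; with 3 libraries a group an exact permutation test cannot give a two-sided p below 0.1. Over the principal transcripts in place of all exons, Psmb8 to Psmb5 averaged 1.296 and 1.36 rather than 0.624 and 0.655 with kinsenoside and PAC-CM alone, so that which subunit is more abundant depends on the length used, while the quotient between groups is the same by construction.

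**Figure D3:**
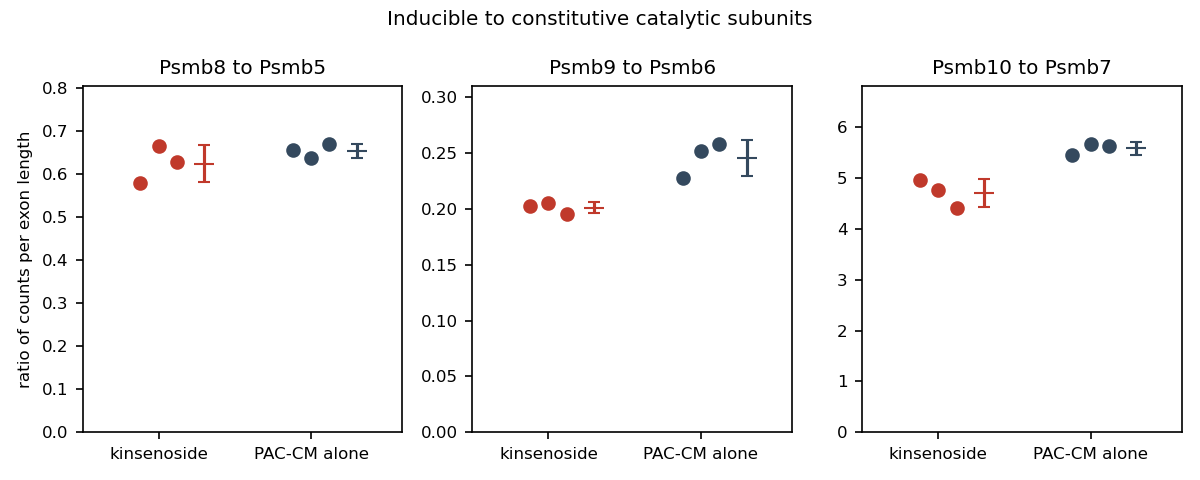
Ratio of counts per exon length of each inducible catalytic subunit to its constitutive counterpart, by library (points) with mean and SD (bars), kinsenoside left and PAC-CM alone right. The kinsenoside libraries lie below the PAC-CM libraries for Psmb9 to Psmb6 (at most 0.205 against at least 0.227) and for Psmb10 to Psmb7, and overlap with them for Psmb8 to Psmb5.

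Of the 8 alpha ring genes, 6 had estimates above 0, and the median of all was 0.050, in a range of -0.036 (Psma1) to 0.12 (Psma3). Psma4 was at 127, 129 and 135 CPM in the kinsenoside libraries, against 126, 113 and 126 CPM in the PAC-CM libraries. Its kinsenoside libraries lay just above the PAC-CM libraries, with an estimate of 0.10 (SE 0.0683, adjusted p = 0.548), but overlapped with them when scaled by total counts. Psma8, the testis form of an alpha subunit whose somatic counterpart is Psma7, had the lowest level of all members, at 0.491, 1.32 and 0.969 CPM in the kinsenoside libraries, against 1.37, 0.437 and 0.915 CPM in the PAC-CM libraries. Its groups overlapped widely. Psma7 itself was at 87.4 ± 4.73 CPM with kinsenoside and 88.7 ± 1.23 CPM with PAC-CM alone. Of the 7 constitutive beta genes, 6 had estimates above 0 and the median was 0.075. Psmb3, a structural beta subunit, was at 65.0, 68.2 and 70.1 CPM in the kinsenoside libraries, against 62.2, 62.9 and 62.2 CPM in the PAC-CM libraries. The groups did not overlap on either scale, with an estimate of 0.12 (SE 0.0619, adjusted p = 0.418). Psmb2 was the lowest estimate of the core, -0.13 (SE 0.0819, adjusted p = 0.523), at 58.4, 63.1 and 63.7 CPM in the kinsenoside libraries, against 74.4, 62.9 and 64.9 CPM in the PAC-CM libraries. PAC-CM replicate 1 held the high value, and the groups overlapped, whereas with total counts all kinsenoside libraries of Psmb2 lay below all PAC-CM libraries.

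**Figure D4:**
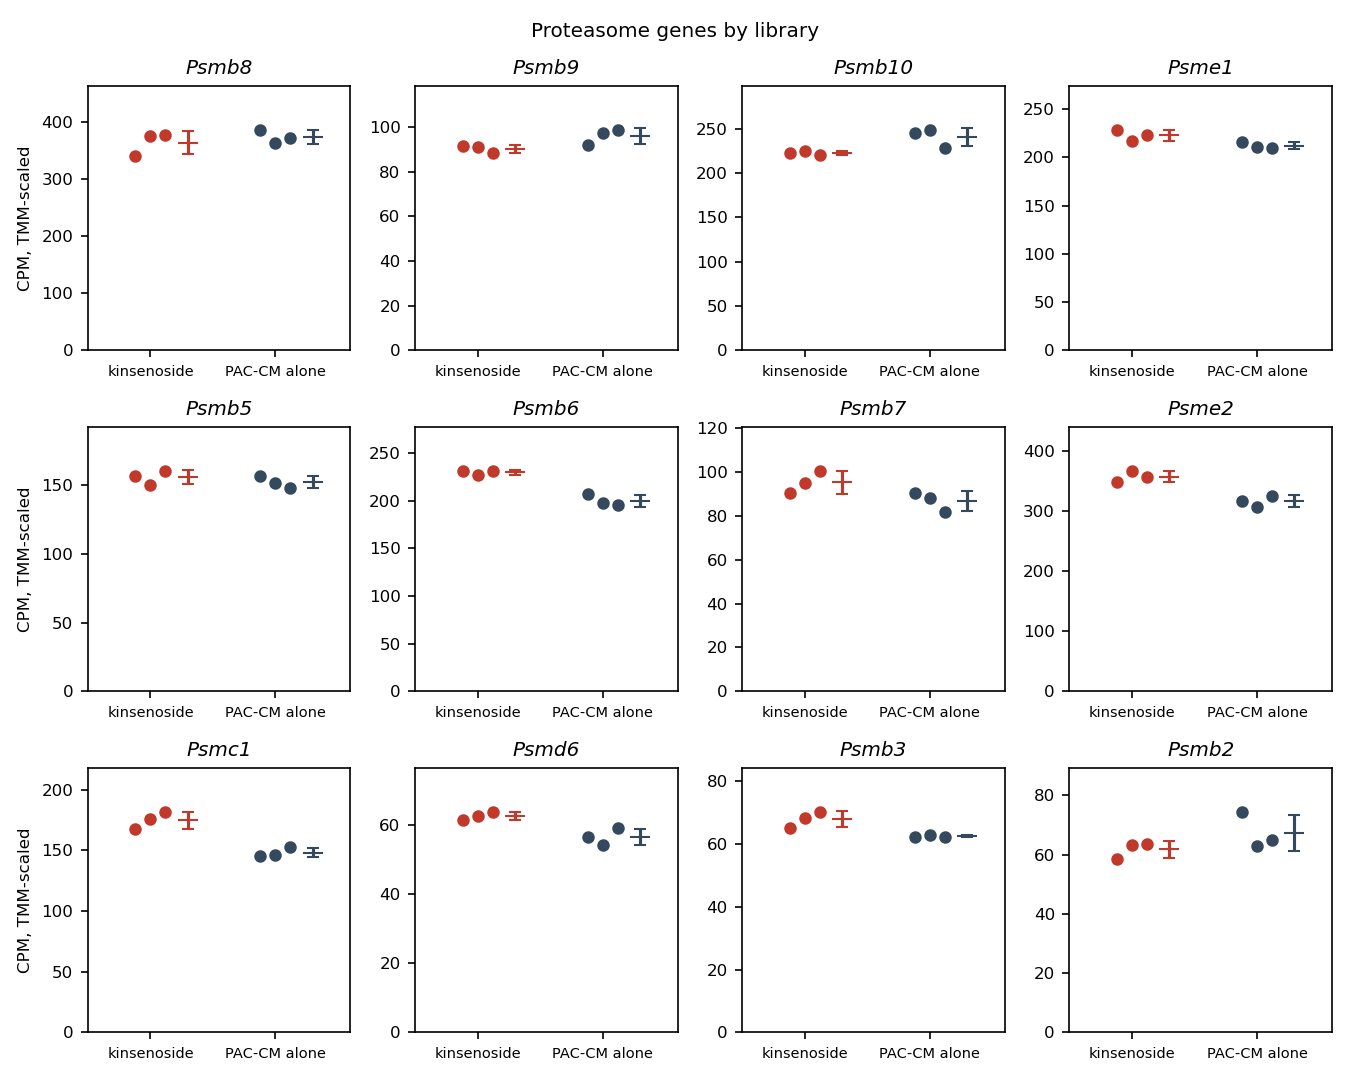
TMM-scaled CPM of 12 members by library (points) with mean and SD over 3 libraries (bars), kinsenoside left and PAC-CM alone right, on axes that start at 0. Psmb6, Psme2, Psmc1, Psmd6, Psmb3 and Psme1 have all kinsenoside libraries above the PAC-CM libraries, Psmb9 and Psmb10 have them below, and Psmb8, Psmb5, Psmb7 and Psmb2 overlap.

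All 6 ATPase genes of the regulatory particle had estimates above 0 (median 0.077). Scaled by total counts 5 did, the exception being Psmc4 at -0.020. Psmc1 (ENSMUSG00000021178, chromosome 12, 100110154 to 100123405), whose tail helps to open the core gate, was at 168, 176 and 182 CPM in the kinsenoside libraries, against 145, 146 and 153 CPM in the PAC-CM libraries. The groups did not overlap, and the estimate was 0.24 (SE 0.0610, adjusted p = 0.131), with an interval of 0.10 to 0.38. Without kinsenoside replicate 1 its adjusted p was 0.11. Psmc5 also had all kinsenoside libraries above the PAC-CM libraries, though not when scaled by total counts. It was at 105 ± 2.66 CPM with kinsenoside and 99.4 ± 1.69 CPM with PAC-CM alone, with an estimate of 0.083 (SE 0.0583, adjusted p = 0.558). Psmc2 was the least abundant ATPase gene per length, at 23.3 ± 0.955 with kinsenoside and 22.2 ± 0.776 in PAC-CM alone, with an estimate of 0.071 (SE 0.0633, adjusted p = 0.655). The lowest ATPase estimate was that of Psmc4, at 92.5 ± 1.06 CPM with kinsenoside and 91.0 ± 4.84 CPM with PAC-CM alone.

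Estimates of 10 of the 14 Psmd genes lay above 0, and their median was 0.051. Psmd6, of the lid, was at 61.4, 62.7 and 63.7 CPM in the kinsenoside libraries, against 56.4, 54.1 and 59.0 CPM in the PAC-CM libraries. The groups did not overlap, and the estimate was 0.15 (SE 0.0639, adjusted p = 0.328). Psmd4, a ubiquitin receptor, was at 87.1, 89.6 and 94.9 CPM in the kinsenoside libraries, against 86.8, 75.7 and 84.8 CPM in the PAC-CM libraries. The lowest kinsenoside library exceeded the highest PAC-CM library by less than 1 CPM, and the estimate was 0.14 (SE 0.0745, adjusted p = 0.441). With total counts the groups of Psmd4 overlapped. Psmd11, a lid subunit that clamps the particle to the core, had the highest estimate of the family, 0.16 (SE 0.0872, adjusted p = 0.427), at 92.4, 79.9 and 98.8 CPM in the kinsenoside libraries, against 80.6, 84.2 and 77.4 CPM in the PAC-CM libraries, and the groups overlapped. Psmd3, also of the lid, had the lowest, -0.14 (SE 0.0941, adjusted p = 0.536), at 119, 118 and 109.7 CPM in the kinsenoside libraries, against 134, 139 and 109 CPM in the PAC-CM libraries. Its spread lay in the PAC-CM libraries, where replicate 3 lay just below all kinsenoside libraries. Psmd14, the deubiquitinase of the lid, was at 105 ± 9.21 CPM with kinsenoside and 96.8 ± 6.29 CPM with PAC-CM alone, and its partner Psmd7 at 107 ± 1.24 CPM with kinsenoside and 104 ± 2.43 CPM with PAC-CM alone. Psmd7 and Psmd12, of the lid, did not overlap between groups at log2 fold changes of 0.040 and 0.051 (adjusted p = 0.8 and 0.75). With total counts both genes overlapped between groups. Psmd2, the docking site for ubiquitin-binding shuttles, was at 366 ± 26.0 CPM with kinsenoside and 354 ± 13.5 CPM with PAC-CM alone. Per kilobase of exon, Psmd2 (90.8 ± 6.44 with kinsenoside and 87.6 ± 3.35 in PAC-CM alone) and Psmd8 (87.0 ± 6.91 with kinsenoside and 88.3 ± 9.61 in PAC-CM alone) were the most abundant Psmd genes and did not differ beyond their spread, and over the principal transcript Psmd8 was the higher in both groups. Psmd5, Psmd9 and Psmd10, which help assemble the base and are not part of the finished particle, had estimates of 0.050, -0.0097 and -0.039, with adjusted p between 0.829 and 0.975.

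The 4 activator genes all had estimates above 0, with scaling by TMM and by total counts alike. Psme1 and Psme2, the interferon-inducible partners of 1 ring-shaped activator, had unequal estimates. Psme2 (ENSMUSG00000079197, chromosome 14, 55587441 to 55591113) was at 348, 366 and 356 CPM in the kinsenoside libraries, against 317, 306 and 326 CPM in the PAC-CM libraries. The groups did not overlap, and the estimate was 0.17 (SE 0.0580, adjusted p = 0.221), with an interval of 0.042 to 0.31. Psme1 (ENSMUSG00000022216, chromosome 14, 55578123 to 55581529) was at 228, 217 and 224 CPM in the kinsenoside libraries, against 216, 211 and 209.7 CPM in the PAC-CM libraries. The lowest kinsenoside library stood 217 against 216 CPM for the highest PAC-CM library, with an estimate of 0.070 (SE 0.0566, adjusted p = 0.619). Psme3, the nuclear activator, and Psme4, which acts on acetylated histones, had estimates of 0.067 and 0.079 (adjusted p = 0.652 and 0.731). Psme3 was at 70.7, 70.5 and 69.1 CPM in the kinsenoside libraries, against 68.6, 66.3 and 65.8 CPM in the PAC-CM libraries. On this scale its groups did not overlap. Scaled by total counts, the groups of Psme1 and those of Psme3 overlapped. Reads of Psme2 can be shared with Psme2b, a gene copy outside the member list whose transcript matches that of Psme2 at 96.2% of 837 bases, so the split between these genes is uncertain. Psme2b was at 63.0, 63.0 and 63.1 CPM in the kinsenoside libraries, against 53.3, 52.8 and 58.8 CPM in the PAC-CM libraries, with an estimate of 0.20 (SE 0.0676, adjusted p = 0.229).

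The inhibitor and assembly chaperones were low. Psmf1, the inhibitor that binds the core, was at 24.3, 25.5 and 23.1 CPM in the kinsenoside libraries, against 24.4, 26.6 and 26.5 CPM in the PAC-CM libraries, with an estimate of -0.088 (SE 0.0774, adjusted p = 0.649). Of the 4 chaperone genes of core assembly, 3 had estimates below 0. Psmg1 was at 3.41, 3.16 and 2.66 CPM in the kinsenoside libraries, against 4.04, 4.41 and 2.90 CPM in the PAC-CM libraries. Without PAC-CM replicate 2 the estimate of Psmg1 was -0.17, and without PAC-CM replicate 3 it was -0.45. The groups overlapped through PAC-CM replicate 3, and the estimate was -0.30 (SE 0.194, adjusted p = 0.524), with a wide interval of -0.74 to 0.15. Psmg2 and Psmg3 had estimates of -0.11 and -0.094, and Psmg4 of 0.025 (adjusted p between 0.803 and 0.962). Psmg3 ranged from 4.57 to 8.86 CPM among the kinsenoside libraries alone, against 6.81 to 7.41 CPM in PAC-CM.

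Counting all members, the 3 kinsenoside libraries lay above the 3 PAC-CM libraries for 12 of 47 genes (25.5%), against 10.4% of all tested genes. They lay below for 2 (4.26%), Psmb9 and Psmb10, against 11.4%. Abundance bears on the first share: among genes averaging 20 CPM or more, the share above was 28.6% of members and 15.5% of all such genes. Both counts moved with the scaling. With total counts, 5 members, Psmb3, Psmb6, Psmc1, Psmd6 and Psme2, lay above (10.6%, against 6.86% of all tested genes). Below lay 3, Psmb2, Psmb9 and Psmb10 (6.38%, against 15.7%). Among genes averaging 20 CPM or more, total counts put 11.9% of members above, near the 9.41% of all such genes. Below lay 7.14% of those members, against 16.3%. Psma4, Psmc5, Psmd4, Psmd7, Psmd12, Psme1 and Psme3, apart with TMM, then overlapped between groups. TMM shifts kinsenoside values upward by 0.0444 on the log2 scale relative to total counts, about as much as the members' median, and so moves every gene alike. By that construction 33 of the members' estimates lay above 0 with TMM and 26 with total counts, as 6798 and 5487 of 13901 did over all tested genes. The members' median was 0.051 and 0.0063, against -0.0056 and -0.050 over all tested genes.

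By library, the core subunits had medians of log2 CPM, each gene taken relative to its own mean, of -0.0091, 0.035 and 0.10 with kinsenoside and -0.0055, -0.057 and 0.011 in PAC-CM. These groups overlapped, with PAC-CM replicate 2 lowest and kinsenoside replicate 3 highest. For the regulators the medians were 0.0047, 0.040 and 0.057 with kinsenoside and -0.0099, -0.085 and -0.0067 in PAC-CM, apart with TMM and overlapping with total counts. The immune subunits had -0.057, -0.029 and -0.072 with kinsenoside and 0.066, 0.062 and 0.013 in PAC-CM, apart on both scales. Medians over all tested genes were apart in the same direction on both scales. With TMM they were 0.0030, 0.00092 and -0.0012 with kinsenoside and 0.011, 0.010 and 0.0048 in PAC-CM. With total counts they were -0.018, -0.013 and -0.032 with kinsenoside and 0.038, 0.028 and 0.026 in PAC-CM. Lying apart is thus not particular to the immune subunits. Together the members took 0.557%, 0.578% and 0.580% of all counts in the kinsenoside libraries, against 0.577%, 0.551% and 0.574% in PAC-CM, with overlap. Without kinsenoside replicate 1, the median log2 fold change was 0.11 for core, -0.10 for immune and 0.10 for regulator subunits, against 0.068, -0.087 and 0.069 with all libraries. Leaving out each library in turn, the median ranged over 0.040 to 0.11 for core, with the lowest value without kinsenoside replicate 3, -0.10 to -0.062 for immune and 0.053 to 0.10 for regulator subunits. For all members it ranged over 0.027 to 0.068, with the lowest value without PAC-CM replicate 2. Whether the subgroups differ from each other was not tested.

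**Figure D5:**
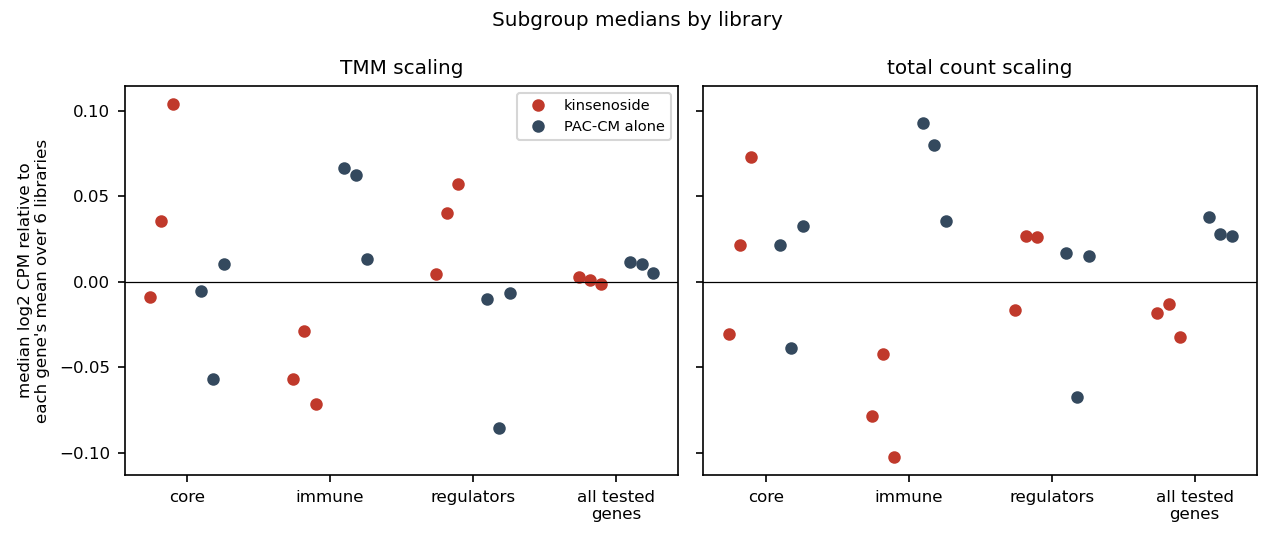
Medians over the members of each subgroup of log2 CPM, centred on the mean of each gene in the 6 libraries, by library (kinsenoside left, PAC-CM alone right), with TMM scaling and with total count scaling. The immune subunits lie lower in every kinsenoside library than in any PAC-CM library in both panels, whereas core subunits overlap in both and regulators only with total counts. The median over all tested genes also lies lower in every kinsenoside library in both panels.

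Among lists of genes that act around the proteasome, edgeR called 1 gene, Irf1, a transcription factor that induces immunoproteasome genes. Over the whole table edgeR called 0.511% of tested genes. Irf1 fell, at 84.7, 83.0 and 89.3 CPM in the kinsenoside libraries, against 149.8, 143 and 159 CPM in the PAC-CM libraries. Its estimate was -0.81 (SE 0.0672, adjusted p = 0.00248), with no overlap. This list, interferon-gamma signalling and response, had 12 tested genes, of which 4 had estimates above 0. Their median was -0.067, against -0.0056 over all tested genes. At an unadjusted p under 0.05, edgeR had 3 of them lower and 0 higher, against 8.19% lower and 6.74% higher over all tested genes. Whether the list differs from that background was not tested. With total counts 2 estimates lay above 0, and the medians were -0.11 and -0.050. Jak2, a kinase of the interferon-gamma receptor, was at 161, 145 and 157 CPM in the kinsenoside libraries, against 214, 201 and 193 CPM in the PAC-CM libraries, without overlap. Its estimate, -0.39 (SE 0.0690, adjusted p = 0.0623), did not pass in edgeR, nor did that of its inhibitor Socs1, -0.41 (SE 0.104, adjusted p = 0.129). DESeq2, which called 441 genes over the whole table, called both as lower, and limma-voom called neither. Jak2 and Socs1 were named after their values were seen.

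Of 16 genes of the MHC class I peptide path, 0 were called by edgeR, DESeq2 or limma-voom. At an unadjusted p under 0.05, edgeR had 1 lower and 0 higher, against 8.19% lower and 6.74% higher over all tested genes. Of the estimates, 7 lay above 0, with a median of -0.026. With total counts 5 did, with a median of -0.070. The most abundant per length were B2m, the light chain of MHC class I, and H2-D1, a heavy chain, with estimates of 0.088 (SE 0.0690, adjusted p = 0.606) and -0.019 (SE 0.0792, adjusted p = 0.944). Tap1, named because its promoter window overlaps that of Psmb9, was at 330.4, 286 and 267 CPM in the kinsenoside libraries, against 333, 349 and 306 CPM in the PAC-CM libraries. The groups overlapped, with an estimate of -0.16 (SE 0.0906, adjusted p = 0.45).

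Of 11 proteasome subunits and associated factors without a Psm symbol, 10 had estimates above 0, with a median of 0.057. edgeR, DESeq2 and limma-voom called 0, and each had 2 higher at an unadjusted p under 0.05. In edgeR these were Sem1 and Ipo9, named after their values were seen. Their edgeR estimates were 0.247 (SE 0.0725, adjusted p = 0.178) and 0.252 (SE 0.0984, adjusted p = 0.29). The groups of Sem1 did not overlap, and those of Ipo9 did. The most abundant per length were Pomp, the maturation factor of the core, with an estimate of 0.057 (SE 0.0687, adjusted p = 0.753), and Akirin2, needed for nuclear import of proteasomes, with -0.0067 (SE 0.0984, adjusted p = 0.987). Among 12 genes around NRF1, 8 estimates lay above 0, with a median of 0.036, and edgeR and limma-voom called 0 with 1 higher at an unadjusted p under 0.05. That gene, which DESeq2 called, was Ddi2, the protease that activates NRF1, named after its value was seen. Ddi2 was at 64.4, 61.5 and 63.3 CPM in the kinsenoside libraries, against 53.7, 52.7 and 52.2 CPM in the PAC-CM libraries. The groups did not overlap, and the edgeR estimate was 0.25 (SE 0.0601, adjusted p = 0.113). The most abundant of the list were Vcp, the segregase that extracts ubiquitinated proteins, and Nfe2l2, the oxidative stress factor, with estimates of 0.079 (SE 0.0603, adjusted p = 0.596) and 0.025 (SE 0.0710, adjusted p = 0.914). For 21 genes of ubiquitin supply and delivery, which also include Ddi2, 13 estimates lay above 0, with a median of 0.040. These list values also moved with the scaling. With total counts, 7 estimates of the genes without a Psm symbol lay above 0 (median 0.013). For the genes around NRF1 it was 4 (median -0.0072), and for ubiquitin supply and delivery 9 (median -0.0045). The median over all tested genes was then -0.050. Of the 21 genes of ubiquitin supply and delivery, edgeR with TMM scaling and limma-voom called 0. Both fits had 4 of them higher at an unadjusted p under 0.05, and DESeq2 called only Ddi2. Over all tested genes, edgeR had 6.74% higher at that level. DESeq2 called 441 of the 23406 genes to which it gave a p-value. Whether the counts of these lists differ from those backgrounds was not tested. Ubb, a polyubiquitin gene, and Sqstm1, an autophagy receptor for ubiquitin, were the most abundant per length, with estimates of -0.035 (SE 0.0649, adjusted p = 0.855) and 0.19 (SE 0.0587, adjusted p = 0.195).

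Some member exons overlap other expressed genes on the opposite strand, and since the sources do not say whether counting used strand, those reads cannot be told apart. Psmb9 shares 212 of its 3660 exon bases with Tap1, and Psmb7 shares 405 of 3421 with Nek6, whose own log2 fold change was -0.037 (SE 0.193, adjusted p = 0.958). Their part in the Psmb9 and Psmb7 values was not tested.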

How the data were processed

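RNA-seq libraries of macrophages, 6 in all and 3 per group, were compared. The authors deposited whole-number counts per Ensembl gene for each library; build GRCm38, the aligner STAR, StringTie (version 1.3.1c) and DESeq2 (version 1.16.1) are listed, per the submitters' processing notes. The tool that made the counts and its use of strand are not given in the sources used here. Since the value 3 occurs 6202 times and the value 2 only 5128 times, some values could be estimates that were rounded.

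Counts were fitted over the whole table with edgeR 4.0.16 (R 4.3.3): filterByExpr, TMM scaling, robust quasi-likelihood fits on group alone, two-sided tests and Benjamini-Hochberg adjustment over 13901 genes. Standard errors are the log2 fold change over the root of the F statistic, and intervals use the fit's degrees of freedom. Alternatives included DESeq2 1.42.0 and limma 3.58.1. Exon lengths and coordinates came from GENCODE M21 (55154 identifiers matched); the principal transcript length was chosen after seeing the data. Log2 CPM used a prior count of 2.

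Members and gene lists were chosen with earlier results of these data known. Named with values were any called member; Psmb5 to Psmb10 and Psme1 to Psme4; in each subgroup the highest and lowest estimate, the most and least abundant member per length, and members whose groups do not overlap; and, per list, every called gene or the 2 most abundant where none is called. Other genes were named after their values were seen, for their role or for a low unadjusted p. The values of 1 list gene are not reported here.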

Additional observations from a re-analysis of the deposited data

How the results depend on the processing

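No proteasome member was called under any of the 15 alternative fits, which were DESeq2, limma-voom, other scalings and filters, non-robust estimates, the replicate block and leaving out each library. The number of genes called over the whole table was 71 in edgeR, 441 with DESeq2, 39 with limma-voom, 36 with non-robust estimates and 13 to 98 with 1 library left out (13, 26 and 14 without PAC-CM replicates 1, 2 and 3, 20 and 37 without kinsenoside replicates 2 and 3, 98 without kinsenoside replicate 1). The cause was not tested, though leaving out a library also lowers the number of samples. Members at an unadjusted p under 0.05 numbered 2 to 8 with 1 library left out. The lowest count came without PAC-CM replicate 2 and the highest without PAC-CM replicate 3, when 6 were higher and 2 lower. The share of all tested genes at that level was not taken for these fits. These counts therefore have no background beside them and show only how far the number moves. Total count scaling, which by construction lowers every estimate, gave medians of -0.13 (immune), 0.024 (regulators) and 0.0063 (all members).

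With the replicate number as a block, 42 genes and 0 members were called. Deviations of same-numbered libraries from their group means correlated at 0.00874, -0.101 and 0.135 for numbers 1 to 3, so the numbers are not shown to pair the libraries, and not every library correlated best with its own number.

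Estimates close to 0 changed sign. With total counts 7 members did so: Psma5 (-0.029), Psma8 (-0.012), Psmb4 (-0.0047), Psmb5 (-0.011), Psmc4 (-0.020), Psmd7 (-0.0041) and Psmg4 (-0.020). With 1 library left out, log2 fold changes ranged over -0.31 to 0.45 for Psma8, -0.063 to 0.0091 for Psmb8, -0.016 to 0.054 for Psmc4, -0.00066 to 0.10 for Psmd2, -0.037 to 0.031 for Psmd9, -0.35 to 0.12 for Psmg3 and -0.011 to 0.11 for Psmg4. These ranges were taken for 29 of the 47 members, so sign changes of other members with 1 library left out are not listed. Without a sign change, but by over 1.5 times, single libraries also moved the extreme estimates of Psmg1 (-0.45 to -0.17), Psmd3 (-0.23 to -0.072), Psmd11 (0.094 to 0.24) and Psmb2 (-0.17 to -0.048). Quotients of the within-library ratios ranged over 0.789 to 0.840 (Psmb9 to Psmb6), 0.821 to 0.870 (Psmb10 to Psmb7) and 0.922 to 0.987 (Psmb8 to Psmb5). Psma8, Psmg1 and Psmg3 had the widest intervals and low counts.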
